A study of Homo sapiens with 8 samples.

Results

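EIF5 and 7 genes that work with or against its product in choosing the start codon of a messenger RNA were followed in poly(A)-selected RNA from 8 libraries of HEK293T, a line derived from human embryonic kidney. The 8 genes were EIF5, EIF1, EIF1B, EIF5B, EIF2S1, EIF2S3, BZW1 and BZW2. They were taken by symbol from a table of 60617 gene identifiers, of which 17527 passed a filter on low counts, and all 8 passed. The list was drawn up around EIF5 with levels in these libraries already known, so the values of its members against WT are given as a description. No p-value of a member is printed. Calls of members at an adjusted p threshold, and their counts, appear further on as description too, and nothing is read from them. The knockout lines were labelled sgKDM5C, sgKDM6A and sgKMT2B for the chromatin enzyme targeted by the guide RNA, and were set against the line labelled WT, with 2 libraries in each of the 4 groups. KDM5C is a demethylase of histone H3 lysine 4, KDM6A a demethylase of histone H3 lysine 27, and KMT2B a methyltransferase of histone H3 lysine 4. No drug or time course was used per the labels, and no source used here says whether a line is 1 clone or a pool of cells. All 3 knockouts were compared with the same WT libraries, so their values against WT are not independent of each other. The labels name no line with a control guide. A difference shared by all 3 knockouts therefore cannot be told apart from a trait of the WT line or of the editing.

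During initiation, the small ribosomal subunit scans along the messenger RNA carrying the initiator tRNA on the GTP-binding factor eIF2, whose alpha and gamma subunits are encoded by EIF2S1 and EIF2S3. The factor eIF1, encoded by EIF1 and its close relative EIF1B, holds the scanning complex open and rejects poor start codons. eIF5 activates GTP hydrolysis by eIF2 and, at higher levels, favours the use of start codons in poor surroundings, so that eIF1 and eIF5 act against each other. BZW1 and BZW2, also called eIF5 mimic proteins, carry the same kind of C-terminal domain as eIF5, bind eIF2 and compete with eIF5. eIF5B is the GTPase that joins the large subunit to the complex once the start codon has been found.

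The surroundings of each gene's own start codon are shown because the members read such sequences and several are known to control the translation of one another through them. The 21 bases are from the GENCODE v29 transcripts of GRCh38, given 5′ to 3′ on the sense strand as DNA, and the capitals mark the third base before the start codon, the start codon and the base after it.
EIF5: taataagccAaaATGTctgtc
EIF1: gaatcgtatCgtATGTccgct
EIF1B: cactagtatCgcATGTccact
EIF5B: cattgacaaGcaATGGggaag
EIF2S1: acatacctcAgaATGCcgggt
EIF2S3: tcttttggcAacATGGcgggc
BZW1: cgggtgtctTttATGAataat
BZW2: gacagaaatTttATGAataag
An A or G at the third base before the start codon and a G just after it favour recognition in human cells. The first was present in 4 of the 8 members, against 85.0% of 18053 human genes taken with 1 coding transcript each, and both together in 2 of 8 (EIF5B and EIF2S3), against 42.6%. EIF1, EIF1B, BZW1 and BZW2 lacked the A or G, and EIF5 and EIF2S1 had it without the G. EIF1 and EIF1B began their coding sequence in nearly the same letters, as did BZW1 and BZW2. In BZW1, 1 of 3 transcripts with a consensus coding sequence used the start codon shown, whereas in each other member all such transcripts did.

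EIF5 was the member with the largest difference from WT, and it was high in every knockout library (GRCh38 chromosome 14, 103333544 to 103345025, plus strand). Levels are in CPM, counts brought to a common library size, with TMM factors for library composition. EIF5 was at 377 and 335 CPM in sgKDM5C, 334 and 349 CPM in sgKDM6A and 380.1 and 353 CPM in sgKMT2B, against 92.9 and 70.8 CPM in WT. The lowest of the 6 knockout libraries thus lay far above both WT libraries, and the knockout lines could not be told apart by their ranges except that both sgKDM6A libraries lay below both sgKMT2B libraries. Group means were 356 ± 29.4 CPM in sgKDM5C, 341 ± 10.2 CPM in sgKDM6A and 367 ± 19.1 CPM in sgKMT2B, against 81.8 ± 15.6 CPM in WT (SD, n = 2 each). The fitted log2 changes against WT were 2.12 (SE 0.12), 2.06 (SE 0.12) and 2.16 (SE 0.12), that is 4.34-fold, 4.16-fold and 4.47-fold. Among 11243 genes averaging 5 CPM or more, EIF5 held rank 15 in sgKDM5C, rank 19 in sgKDM6A and rank 16 in sgKMT2B from the largest increase downwards. Between knockouts, the fitted difference was 0.06 (SE 0.11) for sgKDM5C against sgKDM6A, -0.04 (SE 0.11) for sgKDM5C against sgKMT2B and -0.10 (SE 0.11) for sgKDM6A against sgKMT2B, each smaller than its SE, which does not show that the levels were equal.

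**Figure D1:**
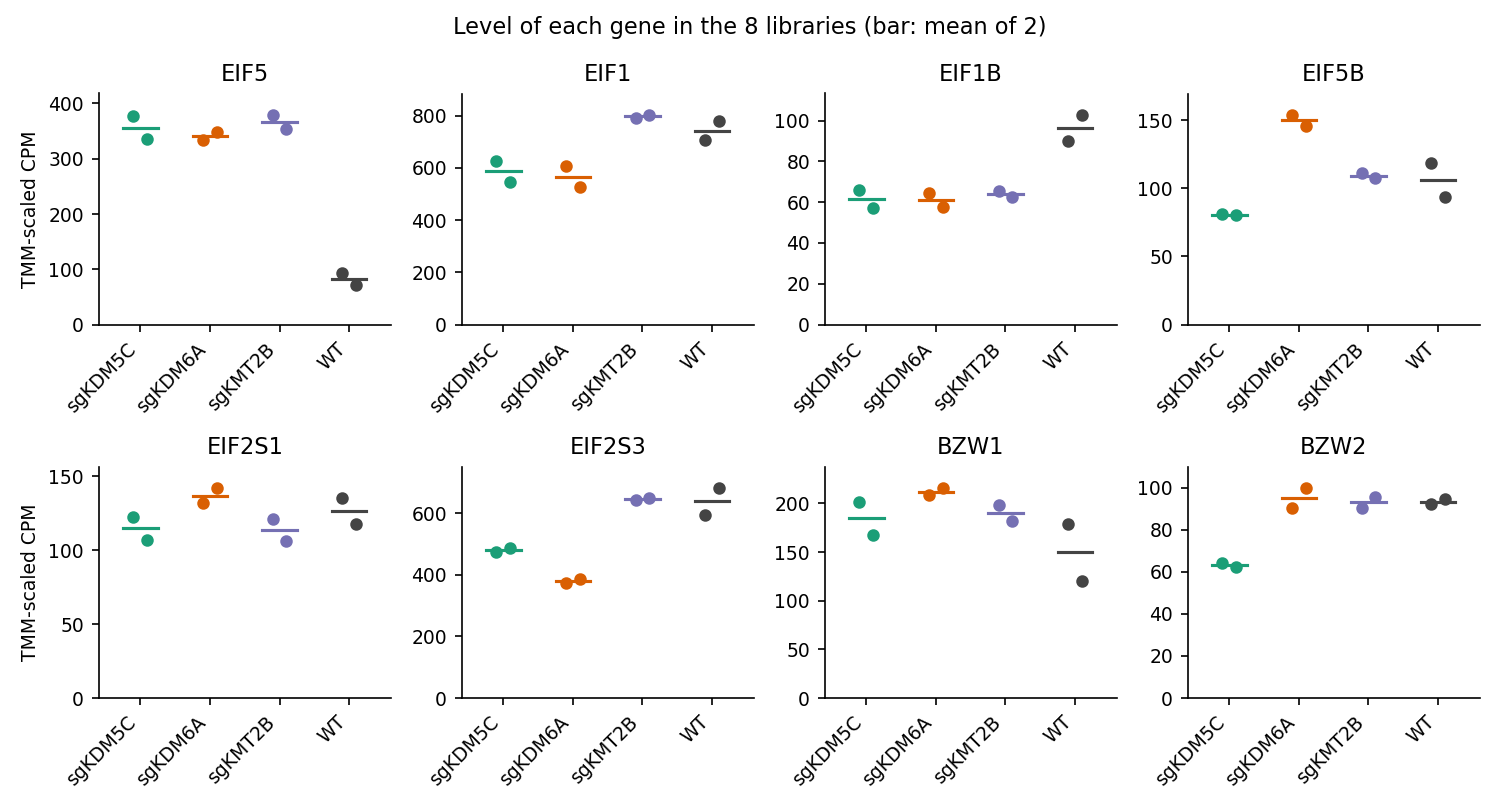
TMM-scaled CPM (y axis, from 0) of each of the 8 genes in the 8 libraries, with points for the 2 libraries of sgKDM5C, sgKDM6A, sgKMT2B and WT and a bar for their mean. EIF5 lies between 334 and 380.1 CPM in the 6 knockout libraries and at 92.9 and 70.8 CPM in WT.

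The genes around EIF5 did not differ from WT in the same way on the whole. The 56 genes within 5 Mb of it that averaged 5 CPM or more had median log2 changes of 0.04 in sgKDM5C, 0.01 in sgKDM6A and 0.00 in sgKMT2B against WT. Over the 384 such genes of chromosome 14, which also carries EIF2S1, the medians were 0.04, 0.05 and -0.01. Few reads were assigned to copies of the gene: the pseudogenes EIF5P1 and EIF5P2 had 2 and 0 counts over the 8 libraries together, and the small nucleolar RNA gene SNORA28, which lies within EIF5 on the same strand, had 12, against 59140 for EIF5. Reads left unassigned because they fit several genes are not in these counts. Of the 50-base stretches of the EIF5 transcript used above, 1.12% also occurred in a transcript of another gene. The counts are per gene, so isoforms of EIF5 were not separated. In bulk RNA, more cells that express a gene and more RNA per cell cannot be told apart.

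The stretch before the first EIF5 start in RefSeq is shown with that of EIF1B. EIF1B was the other member whose 6 knockout libraries all lay on 1 side of both WT libraries. Histone marks on these stretches were not measured. Each runs 250 bases on the plus strand of GRCh38, chr14:103333987-103334236 for EIF5 and chr3:40309457-40309706 for EIF1B, with CCAAT (or its complement ATTGG) and the E-box CACGTG in capitals; the EIF5 stretch lies inside the GENCODE span of the gene, which begins further upstream.
EIF5: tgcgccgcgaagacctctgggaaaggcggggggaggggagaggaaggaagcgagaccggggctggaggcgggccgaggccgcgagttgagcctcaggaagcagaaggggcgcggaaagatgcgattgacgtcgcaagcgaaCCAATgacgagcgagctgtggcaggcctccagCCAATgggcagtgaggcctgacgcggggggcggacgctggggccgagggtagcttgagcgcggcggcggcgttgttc
EIF1B: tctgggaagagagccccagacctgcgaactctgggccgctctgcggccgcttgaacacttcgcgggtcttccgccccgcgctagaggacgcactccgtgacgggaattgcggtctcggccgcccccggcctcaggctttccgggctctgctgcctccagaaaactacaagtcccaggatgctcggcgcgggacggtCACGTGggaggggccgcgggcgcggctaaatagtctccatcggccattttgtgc
The EIF5 stretch held CCAAT 2 times, and the EIF1B stretch held CACGTG 1 time. On either strand, CCAAT occurred in 33.0% of 27305 human stretches of this length and CACGTG in 6.46%. Across the 8 members, 2 held CCAAT (EIF5 and EIF1) and 1 held CACGTG. The GC box GGGCGG or its complement was in 6 of 8 members, against 42.2% of all stretches. EIF5 and EIF1B had 28 and 27 CG pairs, against a median of 10, and EIF5B had 29. The other members ran from 12 (EIF2S1) to 21 (EIF1 and BZW1), so all 8 lay above that median. Such matches describe the letters only.

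The gatekeeper genes EIF1 and EIF1B were lower than WT in most knockouts, the opposite of EIF5. EIF1B (chromosome 3, 40309684 to 40312424) was at 65.9 and 57.1 CPM in sgKDM5C, 64.3 and 57.5 CPM in sgKDM6A and 65.4 and 62.3 CPM in sgKMT2B, against 90.1 and 103 CPM in WT. All 6 knockout libraries lay below both WT libraries. The log2 changes were -0.65 (SE 0.11) in sgKDM5C, -0.66 (SE 0.11) in sgKDM6A and -0.60 (SE 0.11) in sgKMT2B, and the knockouts differed from each other by at most 0.07 on this scale. EIF1 (chromosome 17, 41688885 to 41692668) was at 628 and 547 CPM in sgKDM5C, 606 and 528 CPM in sgKDM6A and 790.2 and 805 CPM in sgKMT2B, against 706 and 781 CPM in WT. It was therefore below WT in sgKDM5C (log2 change -0.34, SE 0.10) and sgKDM6A (-0.39, SE 0.10), with no overlap of libraries, and slightly above WT in sgKMT2B (0.10, SE 0.10). Set directly against sgKMT2B, EIF1 was lower, with a log2 difference of -0.44 (SE 0.10) in sgKDM5C and -0.49 (SE 0.10) in sgKDM6A.

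EIF1B-AS1, which overlaps EIF1B on the other strand, had 298 counts over the 8 libraries against 13528 for EIF1B. Of 50-base stretches, 0 were shared between the EIF1 and EIF1B transcripts. Genes within 5 Mb had median log2 changes between -0.06 and 0.04 for EIF1B (45 genes) and of -0.04 in each knockout for EIF1 (114 genes).

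Of the eIF5 mimics, BZW1 was on average higher than WT in each knockout but spread widely in WT, and BZW2 was lower in sgKDM5C, with WT-like values in the other knockouts. BZW1 (chromosome 2, 200810594 to 200827338) was at 202 and 168 CPM in sgKDM5C, 208 and 216 CPM in sgKDM6A and 198 and 181 CPM in sgKMT2B, against 178 and 121 CPM in WT. Both sgKDM6A and both sgKMT2B libraries lay above WT, while sgKDM5C overlapped with it. The log2 changes were 0.30 (SE 0.15), 0.50 (SE 0.15) and 0.34 (SE 0.15) in sgKDM5C, sgKDM6A and sgKMT2B. The 46 genes within 5 Mb of BZW1 had medians of 0.14, 0.23 and 0.13 in the same order, beside which the part of the neighbourhood in the BZW1 values was not tested. Without WT replicate 2, the lower of the WT libraries, the value in sgKDM6A was 0.25, and without WT replicate 1 it was 0.82, so 1 library decides its size. In sgKDM5C and sgKMT2B the values without WT replicate 2 were 0.03 and 0.09, and without WT replicate 1 they were 0.61 and 0.66. BZW1P2, a processed pseudogene copy, had 177 counts against 36967 for BZW1, and 15.6% of 50-base stretches of the BZW1 transcript occurred in transcripts of other genes, so its level is less certain than that of EIF5.

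BZW2 (chromosome 7, 16646131 to 16706523) was at 64.4 and 62.2 CPM in sgKDM5C, 90.2 and 99.8 CPM in sgKDM6A and 90.4 and 95.5 CPM in sgKMT2B, against 92.0 and 94.6 CPM in WT. The sgKDM5C libraries lay below the other 6, which overlapped with each other. The log2 changes against WT were -0.56 (SE 0.10) in sgKDM5C, 0.03 (SE 0.10) in sgKDM6A and -0.01 (SE 0.10) in sgKMT2B. Against the other knockouts directly, with no WT library in the contrast, BZW2 in sgKDM5C was lower, with log2 differences of -0.59 (SE 0.10) from sgKDM6A and -0.55 (SE 0.10) from sgKMT2B.

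Among the genes of eIF2 subunits, EIF2S3 was lower in sgKDM5C and sgKDM6A, and EIF2S1 stayed near its WT level. EIF2S3 (chromosome X, 24054716 to 24077971) was at 476 and 487 CPM in sgKDM5C, 373 and 385 CPM in sgKDM6A and 642 and 649 CPM in sgKMT2B, against 596 and 683 CPM in WT. The libraries of sgKDM6A were the lowest, those of sgKDM5C came next, and sgKMT2B overlapped with WT. The log2 changes were -0.41 (SE 0.09) in sgKDM5C, -0.75 (SE 0.09) in sgKDM6A and 0.02 (SE 0.09) in sgKMT2B, and the direct difference of sgKDM5C against sgKDM6A was 0.34 (SE 0.09). The 19 genes within 5 Mb had medians of -0.12, -0.13 and 0.02. KDM5C and KDM6A are also on chromosome X, whose 394 genes had medians of 0.02, -0.02 and 0.02. EIF2S3B, an intact copy of EIF2S3 on chromosome 12, had 1332 counts over the 8 libraries, 1.29% of those of EIF2S3, and 23.2% of 50-base stretches of the EIF2S3 transcript occurred in other genes.

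EIF2S1 (chromosome 14, 67359997 to 67386516) was at 123 and 107 CPM in sgKDM5C, 132 and 142 CPM in sgKDM6A and 121 and 106 CPM in sgKMT2B, against 135 and 118 CPM in WT. Each knockout overlapped with WT. The log2 changes were -0.14, 0.11 and -0.16 (SE 0.11 each), so a difference about as large as the SE could not be seen here. The start of the gene overlaps ATP6V1D on the other strand, which had 6083 counts against 24271 for EIF2S1.

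EIF5B (chromosome 2, 99337353 to 99401326), the subunit-joining GTPase, was lower than WT in sgKDM5C and higher in sgKDM6A. It was at 81.0 and 80.1 CPM in sgKDM5C, 154 and 145 CPM in sgKDM6A and 111 and 107 CPM in sgKMT2B, against 118 and 93.2 CPM in WT. The sgKDM5C libraries were below and the sgKDM6A libraries above all others. The log2 changes against WT were -0.39 (SE 0.11), 0.50 (SE 0.11) and 0.04 (SE 0.11), and that of sgKDM5C against sgKDM6A was -0.89 (SE 0.11), or 1.86-fold lower. Without WT replicate 1 the sgKDM5C value was -0.21, and the call against WT was lost. REV1 and TXNDC9 overlap EIF5B on the other strand, with 5421 and 3482 counts against 22078, and 14.0% of its 50-base stretches occurred in REV1. Without a stated strand setting such reads cannot be assigned to a strand.

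**Figure D2:**
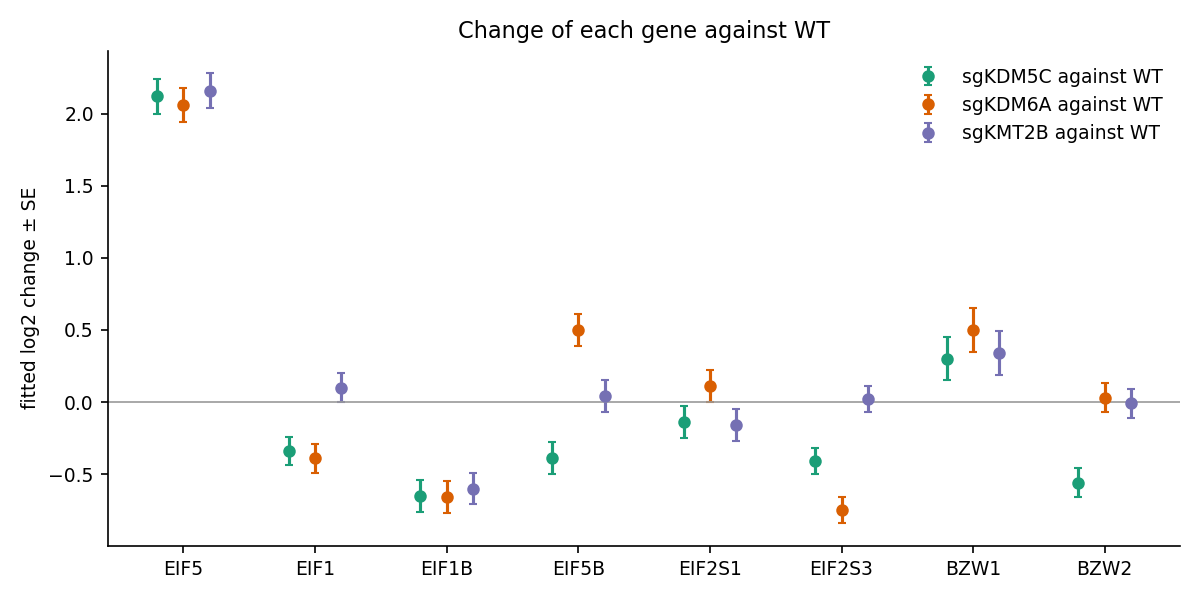
Fitted log2 change against WT (y axis) of the 8 genes in sgKDM5C, sgKDM6A and sgKMT2B, with bars of 1 SE from the fit on 8 libraries. EIF5 stands near 2 in all 3 knockouts and EIF1B between -0.60 and -0.66, while EIF5B, EIF2S3 and BZW2 differ between the knockouts.

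Counted over the members, those with an adjusted p under 0.05 in the fit over all genes (edgeR's quasi-likelihood test with Benjamini-Hochberg adjustment) were 1 higher and 5 lower of 8 in sgKDM5C, where 22.6% of all genes tested passed (11.1% higher, 11.5% lower). In sgKDM6A they were 3 higher and 3 lower, with 27.2% of all genes passing (12.6% higher, 14.6% lower). In sgKMT2B they were 1 higher (EIF5) and 1 lower (EIF1B), with 28.1% passing (13.7% higher, 14.5% lower). The calls of EIF1 in sgKDM5C and sgKDM6A, EIF5B in sgKDM5C and BZW1 in sgKDM6A were each lost without 1 or more single libraries. The members' median log2 changes were -0.36, 0.07 and 0.03, against 0.02, 0.01 and 0.00 over all genes. Since the list was chosen with these values known, nothing is read from the counts. Between knockouts, 1 was higher and 2 lower for sgKDM5C against sgKDM6A, beside 19.8% of all genes (10.9% higher, 8.86% lower). For sgKDM5C against sgKMT2B, 0 were higher and 4 lower, beside 22.1% (11.6% higher, 10.5% lower). For sgKDM6A against sgKMT2B, 1 was higher and 2 lower, beside 24.9% (12.4% higher, 12.5% lower). EIF5 and EIF1B were in none of these. Some of them were lost without 1 library: EIF2S3 in the first (sgKDM5C replicate 2 or either sgKDM6A replicate), EIF5B in the second (any of its 4 libraries) and last comparison (sgKDM6A replicate 1 or sgKMT2B replicate 2), and EIF1 in the second (sgKDM5C replicate 2). Libraries of the groups did not overlap for 6, 6 and 4 members in sgKDM5C, sgKDM6A and sgKMT2B against WT, beside 60.7%, 63.5% and 64.3% of all genes. Between knockouts they did not for 5, 4 and 6 members in the order above, beside 60.3%, 62.1% and 64.1% of all genes.

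Per kilobase of annotated exon, EIF5 had the lowest mean of the members in WT and the third highest in each knockout. It had 41.8 ± 3.46 CPM per kb in sgKDM5C, 40.1 ± 1.20 in sgKDM6A and 43.1 ± 2.24 in sgKMT2B, against 9.62 ± 1.84 in WT (SD, n = 2 each). EIF1 and EIF2S3 led in every group, EIF1 at 162 ± 15.8, 156.5 ± 15.1 and 220.1 ± 2.85 CPM per kb in sgKDM5C, sgKDM6A and sgKMT2B against 205 ± 14.5 in WT. EIF2S3 followed at 138.6 ± 2.18, 109 ± 2.57 and 186 ± 1.48 CPM per kb, against 184 ± 17.7 in WT, and lay below EIF1 in each WT library. In WT the next were EIF1B (50.5 ± 4.77), BZW2 (25.5 ± 0.49), EIF2S1 (22.4 ± 2.15), BZW1 (18.5 ± 5.06) and EIF5B (13.4 ± 2.25 CPM per kb). BZW1 did not stand apart from EIF2S1 or EIF5B in that order, given its spread. The order depends on the length used. All annotated exons of a gene together were 1.43 times as long as the transcript shown above for EIF5, 1.89 times for EIF1B and 1.97 times for BZW2. Per kilobase of that transcript EIF5 was again last in WT, but in the knockouts it came just after EIF1B in place of just before it. EIF5 then had 59.9 ± 4.95, 57.4 ± 1.71 and 61.7 ± 3.21 CPM per kb in sgKDM5C, sgKDM6A and sgKMT2B. EIF1B had 60.9 ± 6.15, 60.3 ± 4.77 and 63.2 ± 2.13 (SD, n = 2 each). The mean of EIF5 thus lay within 1 SD of EIF1B from the mean of EIF1B in each knockout. In sgKDM6A it did not by the smaller SD of EIF5.

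The RNA balance between EIF5 and the genes of factors known to oppose its product therefore differed between knockouts and WT in every library. Protein levels were not measured here. Another length would scale each ratio below by 1 factor in all libraries. The level of EIF1 per kilobase of annotated exon was 3.56 to 5.35 times that of EIF5 in the 6 knockout libraries (median 4.08), against 17.9 and 25.9 times in WT. For BZW1 the ratio to EIF5 was 0.526 to 0.655 (median 0.556) in the knockouts, against 2.02 and 1.79 in WT. For BZW2 it was 0.397 to 0.665 (median 0.589) in the knockouts, against 2.30 and 3.10 in WT. These ratios follow mostly from EIF5 itself, which the list was built around. The ratio of EIF1 to EIF1B, in which EIF5 has no part, lay between 4.85 and 5.06 in the sgKDM5C and sgKDM6A libraries and reached 6.38 and 6.82 in sgKMT2B, against 4.13 and 4.00 in WT.

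**Figure D3:**
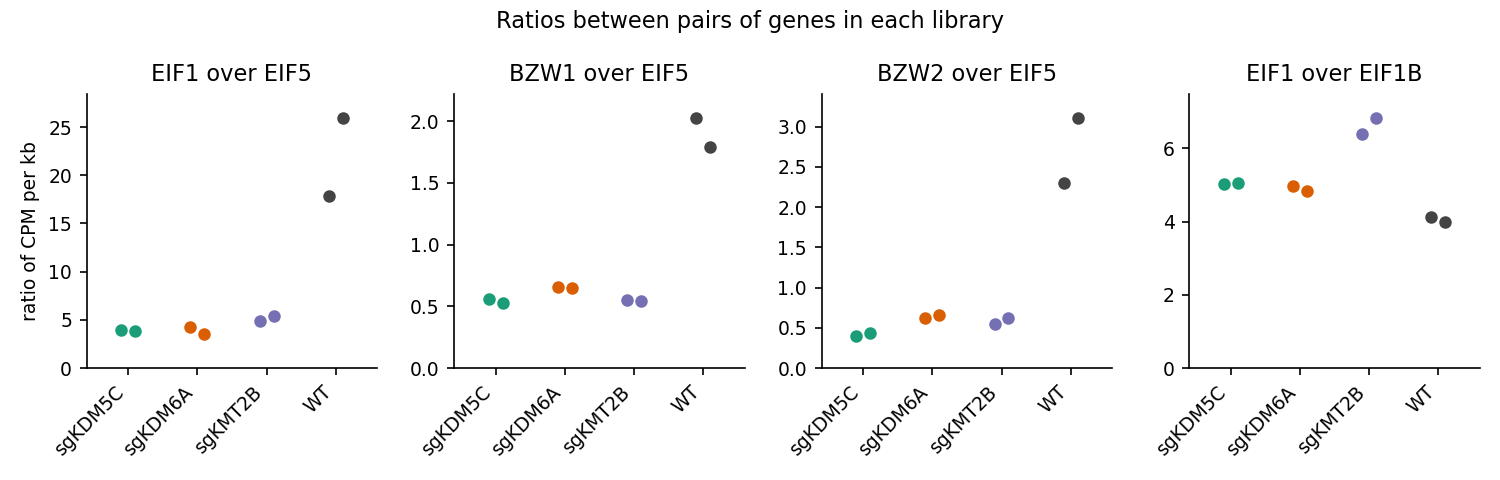
Ratio of CPM per kb between pairs of members (y axis, from 0) in each of the 2 libraries of sgKDM5C, sgKDM6A, sgKMT2B and WT. EIF1, BZW1 and BZW2 relative to EIF5 are lower in all 6 knockout libraries than in both WT libraries, and EIF1 relative to EIF1B is higher.

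The genes whose log2 CPM followed EIF5 most closely over the 8 libraries were TRPM7, a magnesium-permeable channel with a kinase domain (Pearson r = 0.995), ZMYND11, a reader of methylated histone H3 (0.990), TNRC6A, a partner of Argonaute proteins in microRNA silencing (0.988), HNRNPH1, a splicing regulator (0.986), and AGGF1 (0.986), out of 11163 genes ranked. They lie on chromosomes 15, 10, 16, 5 and 5. Each was higher in all knockouts than in WT, but by less than EIF5. TRPM7 was at 41.4 ± 2.06, 41.3 ± 1.83 and 39.9 ± 0.0525 CPM in sgKDM5C, sgKDM6A and sgKMT2B, against 20.6 ± 1.41 CPM in WT. ZMYND11 was at 40.8 ± 6.82, 36.6 ± 0.686 and 37.6 ± 1.83 CPM, against 15.3 ± 1.29 CPM in WT. HNRNPH1, the most abundant of them, was at 347 ± 1.21, 344 ± 4.12 and 357 ± 13.2 CPM, against 275 ± 16.8 CPM in WT (SD, n = 2 each). With a profile made of 2 low and 6 high libraries, such correlations describe mainly the step between WT and the knockouts. Within the list, BZW1 had r = 0.767 with EIF5 and EIF1B had r = -0.953, while EIF1, EIF5B, EIF2S1, EIF2S3 and BZW2 lay between -0.490 and 0.087.

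**Figure D4:**
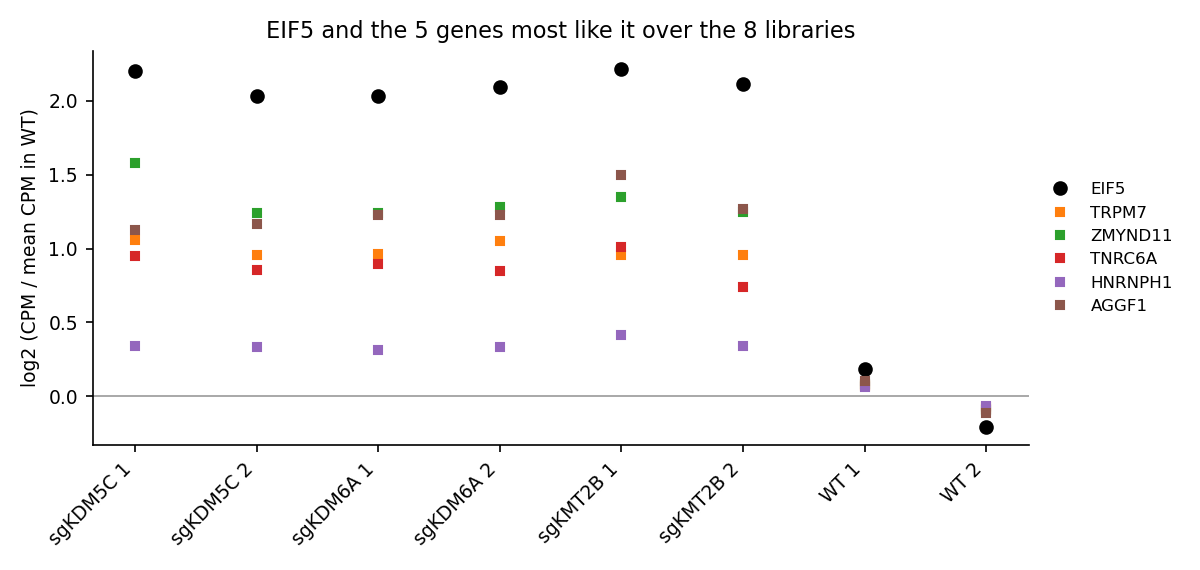
Log2 of the CPM over the mean CPM in WT (y axis) for EIF5 (circles) and the 5 genes most like it (squares) in each library, knockouts on the left and WT on the right. All 6 genes are above 0 in the 6 knockout libraries, EIF5 by about 2.

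Other genes of translation initiation were examined as a list of 51, ordered by role, and all 51 passed the filter. In sgKDM5C, 1 rose and 14 fell, so 29.4% of the list passed against 22.6% of all genes (11.1% higher, 11.5% lower). In sgKDM6A, 5 rose and 14 fell (37.3% against 27.2% of all genes, 12.6% higher and 14.6% lower). In sgKMT2B, 8 rose and 7 fell (29.4% against 28.1% of all genes, 13.7% higher and 14.5% lower). The same shares of all genes stand beside the counts of each role below, from which nothing is read. The medians of the list were -0.15, 0.05 and -0.03 on the log2 scale. The counts depended on single libraries. Leaving out sgKDM5C replicate 1 gave 9 in sgKDM5C. In sgKDM6A, leaving out WT replicate 1 gave 29, and leaving out sgKDM6A replicate 1 gave 11. In sgKMT2B, leaving out either sgKMT2B replicate gave 8.

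Of 7 genes of eIF2, its exchange factor eIF2B and its assembly, 2 fell in sgKDM5C, 2 rose and 1 fell in sgKDM6A, and 1 rose and 1 fell in sgKMT2B. EIF2B3, a subunit of eIF2B, which recharges eIF2 with GTP, was at 36.7 ± 0.979, 28.4 ± 1.05 and 40.5 ± 3.98 CPM in sgKDM5C, sgKDM6A and sgKMT2B, against 54.7 ± 4.63 CPM in WT. It fell by 0.57 (SE 0.12, adjusted p = 0.00487 by edgeR), 0.94 (SE 0.12, adjusted p = 0.000131) and 0.43 (SE 0.12, adjusted p = 0.0167), the last not passing without WT replicate 2 (adjusted p = 0.0917) or sgKMT2B replicate 2 (adjusted p = 0.167). EIF2S2, the beta subunit of eIF2, rose in sgKMT2B by 0.66 (SE 0.14, adjusted p = 0.00308), at 221 ± 1.91 CPM against 139 ± 37.8 CPM in WT. CDC123, which assembles eIF2, rose in sgKDM6A by 0.49 (SE 0.09, adjusted p = 0.0022).

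Among 6 genes of eIF2 kinases and phosphatase subunits, 2 fell in sgKDM5C, 3 fell in sgKDM6A, and 1 rose and 1 fell in sgKMT2B. PPP1R15A, the stress-induced subunit that directs a phosphatase to eIF2 alpha, had the largest change, at 42.5 ± 0.516, 32.9 ± 3.05 and 49.8 ± 3.18 CPM in sgKDM5C, sgKDM6A and sgKMT2B, against 112 ± 38.3 CPM in WT. Its log2 changes were -1.40 (SE 0.18, adjusted p = 0.000209), -1.77 (SE 0.18, adjusted p = 2.14e-05) and -1.17 (SE 0.18, adjusted p = 0.000334) by edgeR. The constitutive subunit PPP1R15B fell in sgKDM5C (-0.51, SE 0.10, adjusted p = 0.00367), and the heme-regulated kinase EIF2AK1 fell in sgKDM6A (-0.78, SE 0.09, adjusted p = 4.65e-05).

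Of 15 genes of eIF1A and eIF3, which bind the small subunit, 3 fell and 0 rose in sgKDM5C, 2 fell and 1 rose in sgKDM6A, and 2 fell and 2 rose in sgKMT2B. EIF3B, a scaffold subunit, fell in sgKDM5C to 410.4 ± 28.3 CPM, against 584 ± 13.9 CPM in WT (-0.51, SE 0.08, adjusted p = 0.00102 by edgeR). EIF1AX, the scanning partner of eIF1, rose in sgKMT2B to 226 ± 19.4 CPM, against 144 ± 41.7 CPM in WT (0.64, SE 0.15, adjusted p = 0.0055), and did not pass without sgKMT2B replicate 1 (adjusted p = 0.0583). EIF3G was lower in sgKDM6A (-0.44, SE 0.09, adjusted p = 0.00329) and higher in sgKMT2B (0.33, SE 0.09, adjusted p = 0.0152), the second call being lost without WT replicate 2 or either sgKMT2B replicate (adjusted p = 0.0769 to 0.0839).

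Of the 15 genes of cap binding and scanning, 46.7%, 46.7% and 40.0% passed in sgKDM5C, sgKDM6A and sgKMT2B, beside 22.6%, 27.2% and 28.1% of all genes. In each of sgKDM5C and sgKDM6A, 1 rose and 6 fell, and in sgKMT2B 3 rose and 3 fell. EIF4A2, an RNA helicase of the cap complex, was at 214 ± 28.9, 185 ± 40.2 and 175 ± 36.0 CPM in sgKDM5C, sgKDM6A and sgKMT2B, against 336 ± 7.96 CPM in WT. It fell in all 3 knockouts (-0.65, -0.86 and -0.94, SE 0.15 each, adjusted p = 0.00874, 0.0013 and 0.000622 by edgeR), and in sgKDM5C did not pass without sgKDM5C replicate 1 (adjusted p = 0.0827). The poly(A)-binding protein gene PABPC1 fell in sgKDM5C (-0.54, SE 0.08, adjusted p = 0.00057) and sgKDM6A (-0.42, SE 0.08, adjusted p = 0.00177), the helicase DDX3X fell in sgKDM6A (-0.73, SE 0.11, adjusted p = 0.000343), and the cap-binding inhibitor EIF4EBP1 rose in sgKMT2B (0.50, SE 0.11, adjusted p = 0.00413). EIF4A1 is uncertain. It lies within the annotated readthrough gene SENP3-EIF4A1 and was counted at 2.38 to 8.97 CPM only, and it is 1 of the 6 genes that fell in each of sgKDM5C and sgKDM6A.

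In the last group of 8, for alternative tRNA delivery, release and recycling, 1 fell in sgKDM5C, 2 fell and 1 rose in sgKDM6A, and 1 rose in sgKMT2B. EIF2D, which can deliver initiator tRNA without eIF2, fell in sgKDM5C to 93.1 ± 0.227 CPM and in sgKDM6A to 84.1 ± 1.92 CPM, against 133 ± 25.5 CPM in WT (-0.51 and -0.66, SE 0.12 each, adjusted p = 0.00751 and 0.00128 by edgeR). ABCE1, the ribosome recycling ATPase, rose in sgKDM6A to 202 ± 3.77 CPM, against 117 ± 33.9 CPM in WT (0.79, SE 0.14, adjusted p = 0.00158).

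**Figure D5:**
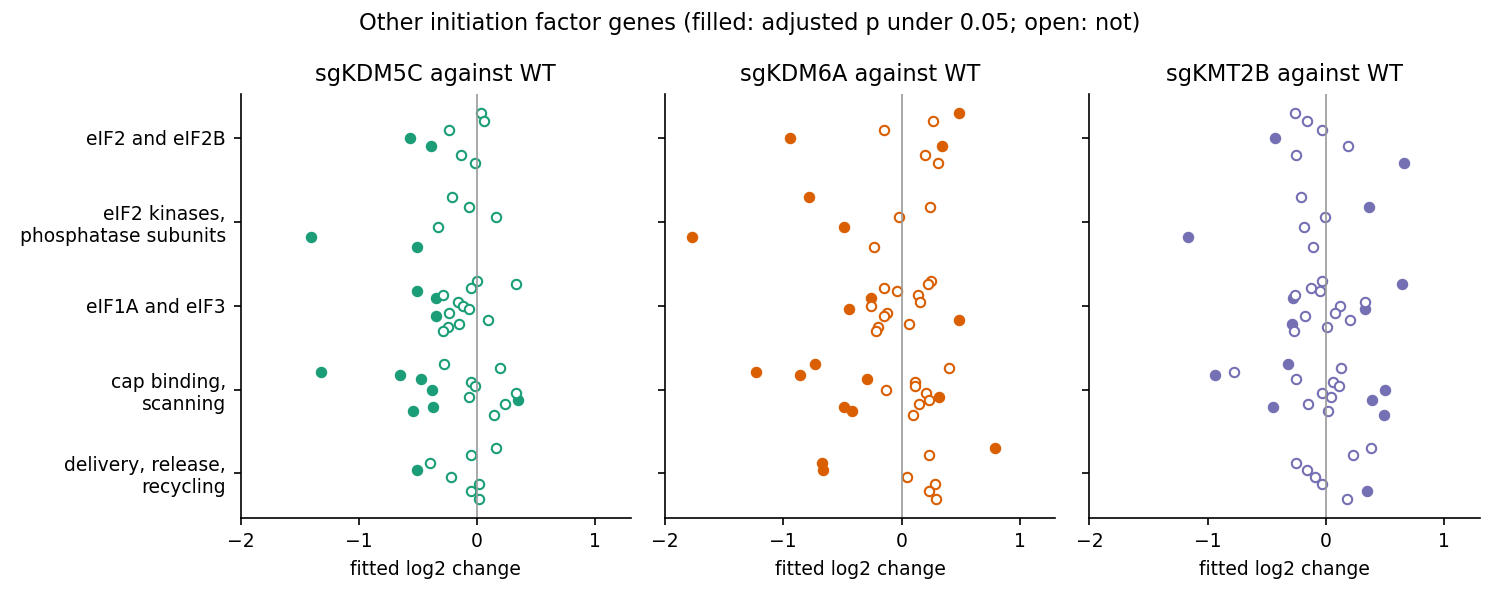
Fitted log2 change against WT (x axis) of 51 other initiation factor genes, 1 point per gene, grouped by role from top to bottom, with filled points for an adjusted p under 0.05. PPP1R15A is the point furthest to the left in each of the 3 panels, at -1.40, -1.77 and -1.17.

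Total counts ran from 25062543 to 27591724 in the 6 knockout libraries and were 25099182 and 15868353 in WT. Each gene aimed at by a guide had its lowest level in the line named for it, KDM5C at 331 and 312 CPM in sgKDM5C against 440.4 and 471 CPM in WT, KDM6A at 10.3 and 11.5 CPM in sgKDM6A against 54.2 and 61.2 CPM in WT, and KMT2B at 63.0 and 75.5 CPM in sgKMT2B against 146 and 137 CPM in WT. In the other knockouts KDM5C lay below both WT libraries too, at 379 and 387 CPM in sgKDM6A (log2 change -0.25, SE 0.08, adjusted p = 0.0359 by edgeR) and 395 and 390.1 CPM in sgKMT2B (-0.21, SE 0.08, adjusted p = 0.0667, not passing), beside -0.50 (SE 0.08) in sgKDM5C. Of 6 genes usual in this line, VIM, KRT8, KRT18 and PAX2 had counts in every library, NEFM reached 0 and LHX1 had at most 5 counts. KRT8 stood far apart between lines, at 51.6 and 50.8 CPM in sgKDM5C, 5.15 and 5.61 CPM in sgKDM6A and 247 and 265 CPM in sgKMT2B, against 59.9 and 61.3 CPM in WT. The 12 markers of other cell types summed to 25.3 to 51.3 CPM in the knockouts and 56.0 and 57.2 CPM in WT, mostly COL1A1 (22.3 to 52.8 CPM), with CD3E and HBB at 0. Their part in the differences of EIF5 was not tested. The labels do not say that the 2 libraries of a group came from separate cultures, so SDs and p-values measure only the spread between these libraries, which may be technical.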

How the data were processed

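Poly(A) RNA was reverse transcribed from random hexamers and sequenced as paired ends, per the labels' protocols. The authors deposited raw read counts per Ensembl gene, for which the submitters' processing notes name STAR, HTSeq 0.11.2 and GRCh38. No source used here gives the STAR version, the gene annotation or the strand setting of the counting. Symbols were found for 60596 of 60617 identifiers, and coordinates and exon lengths came from GENCODE v29. Total counts ran from 15868353 to 27591724, so 3 counts were 0.107 to 0.195 CPM.

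Counts were fitted with edgeR 4.0.16 in R 4.3.3 (glmQLFit, glmQLFTest) over the 8 libraries together, each group having its own coefficient, with TMM factors of 0.965 to 1.056 and filterByExpr, leaving 17527 genes. P-values were adjusted by Benjamini-Hochberg over all genes tested, with calls at an adjusted p under 0.05. DESeq2 1.42.0 and other alternatives are in the closing section. Replicates differed by more than sampling noise (chi-square per degree of freedom 7.57 to 15.33). The members, lists and tests were chosen with earlier results of these data known. Named genes were the 8 members, their copies and overlapping genes, the targeted genes, the 5 genes most correlated with EIF5 (at least 5 CPM), and up to 3 other initiation factors per role and knockout with the smallest adjusted p. Start codons came from the coding transcript with a consensus coding sequence and the best support level of each gene, and upstream stretches from RefSeq (GRCh38.p14), matched for all 8 members.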

Additional observations from a re-analysis of the deposited data

How the results depend on the processing

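The fit was repeated under 16 alternatives: other scaling factors, DESeq2, no filter on low counts, a filter at a mean CPM of 1, only the groups compared, the replicate block, each library left out, and, chosen after seeing the data, a trend on exon length removed. EIF5 kept its direction and its call against WT in all of them. Its log2 changes were 1.92 to 2.33 in sgKDM5C, 1.88 to 2.27 in sgKDM6A and 1.98 to 2.38 in sgKMT2B. EIF1B kept both as well (-0.76 to -0.50 over the 3 knockouts). The members were chosen with values of these same libraries known. Calls kept on refitting therefore describe the processing only and are no further evidence for the differences. Of 384 values for members against WT, 367 kept their direction and side of the threshold, 10 lost their call, 5 gained one (all for BZW1) and 2 near 0 moved. The 384 include settings that left out a library of a group not in the comparison. Such settings can alter a value only through the shared fit, so the tally overstates stability. The lost calls were those of EIF1, EIF5B and BZW1. In sgKDM5C, EIF1 was at -0.28 when WT replicate 2 was left out and at -0.25 when sgKDM5C replicate 2 was, and in sgKDM6A it was at -0.29 without sgKDM6A replicate 2. BZW1 in sgKDM6A lost its call without WT replicate 2 (0.25) or either sgKDM6A replicate (0.53 and 0.48). EIF5B in sgKDM5C lost its call without WT replicate 1 (-0.21) or either sgKDM5C replicate (-0.40 each), and when only the groups compared were fitted (-0.40).

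Leaving out 1 library at a time gave 1841 to 3877 called genes in sgKDM5C against WT (3969 with all), 2495 to 4711 in sgKDM6A (4759) and 2372 to 4787 in sgKMT2B (4931). It gave 1878 to 4158 for sgKDM5C against sgKDM6A, 2236 to 4488 for sgKDM5C against sgKMT2B and 2551 to 4966 for sgKDM6A against sgKMT2B. Other initiation factors called numbered 9 to 22 in sgKDM5C, 11 to 29 in sgKDM6A and 8 to 22 in sgKMT2B. Without WT replicate 1, EIF2S2 and EIF4E in sgKDM5C turned to 0.29 and 0.40. In WT replicates 1 and 2, EIF2S2 was at 166 and 113 CPM and EIF4E at 83.9 and 48.7 CPM. The cause of that spread was not tested. With upper-quartile factors, the calls of other factors in sgKMT2B were 8 higher and 10 lower.

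Between knockouts, libraries with the same replicate number deviated together weakly. The correlations were 0.182 for sgKDM5C with sgKDM6A, 0.1 for sgKDM5C with sgKMT2B and 0.083 for sgKDM6A with sgKMT2B. Those of WT with sgKDM5C, sgKDM6A and sgKMT2B were 0.007, -0.018 and -0.001. Whether same-numbered libraries share more than a number was not tested. With the replicate block, 4645, 5521 and 5576 genes were called in sgKDM5C, sgKDM6A and sgKMT2B against WT, and BZW1 passed in sgKMT2B (0.36). Depth limited no member, the lowest count being 1089.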

Other observations

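The 2 WT libraries differed in the members in a way that went with gene length. All 4 members with at least 5 kb of annotated exon were lower in WT replicate 2 than in replicate 1, BZW1 by -0.56, EIF5 by -0.39, EIF5B by -0.34 and EIF2S1 by -0.20 on the log2 scale, and 0 of the 4 shorter members were (EIF2S3 0.20, EIF1B 0.19, EIF1 0.14 and BZW2 0.04). The split at this length was chosen after seeing the values. Over 11243 genes that averaged 5 CPM or more, the same difference had medians of 0.01 in the 6013 longer and -0.01 in the 5230 shorter genes. Its Spearman correlation with exon length was 0.05, so the members' pattern was not seen over all genes. For replicate 2 minus replicate 1 the correlation was 0.19 in sgKDM5C, 0.18 in sgKDM6A and -0.05 in sgKMT2B. The difference of EIF5 from WT was larger than its spread between the WT libraries, and that of BZW1 was not.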
